A study of Mus musculus with 8 samples.

Results

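The genes described here are 10 markers of mural cells, the contractile and supporting cells on the outside of blood vessels, taken from a list and not from a cluster or a threshold. They were 10 of 20692 genes in RNA profiles of 8 libraries from the central amygdala of male mice. Earlier results of the same libraries were known when the list was made, among them the lower values of Acta2, Vtn and Rgs5 in one population. Each library came from about 1000 tdTomato-positive cells, sorted from the punched and papain-dissociated amygdala of 1 mouse. The 4 PkcdRed libraries came from mice that carried a PKC delta-type::Cre transgene and a Rosa loxP-STOP-loxP tdTomato reporter, aged 9 weeks (replicates 1 and 2) or 18 weeks (replicates 3 and 4). The 4 SstRed libraries came from SST::Cre mice with the same reporter, aged 8 weeks (replicates 1 and 2) or 20 weeks (replicates 3 and 4). Both populations were defined by a promoter that drives Cre, and the reporter stays on in a cell once Cre has acted. Whether every sorted cell had switched on the reporter itself was not tested.

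Mural cells comprise vascular smooth muscle cells, which ring arteries and arterioles, and pericytes, which sit on capillaries within the basement membrane. Smooth muscle cells are known for a contractile apparatus of smooth muscle actin and myosin, whose genes are switched on by serum response factor and its partner myocardin. Pericytes are known for the receptor of platelet-derived growth factor B, through which endothelial cells recruit them, and for a potassium channel that senses energy state. Neither cell type is neuronal.

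The 2 sides of the list can be set side by side in their promoters. Windows from 250 bases before to 50 bases after the RefSeq start (GRCm38.p6) were at hand for 6 of the 10 genes. Those of Acta2 and Myl9, from the smooth muscle side, and those of Vtn and Rgs5, from the pericyte side, are shown because these genes carry most of the results. The search was for the CArG box, the site bound by serum response factor, with up to 1 base of its 6-base core other than A or T. Capitals mark each match, and the box reads the same on both strands.
Acta2: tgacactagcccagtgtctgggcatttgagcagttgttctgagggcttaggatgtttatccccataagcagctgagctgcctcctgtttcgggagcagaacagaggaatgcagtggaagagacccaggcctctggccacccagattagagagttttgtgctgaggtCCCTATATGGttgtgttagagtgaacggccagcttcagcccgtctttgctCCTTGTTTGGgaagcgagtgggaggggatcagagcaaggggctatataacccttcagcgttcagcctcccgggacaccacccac
Myl9: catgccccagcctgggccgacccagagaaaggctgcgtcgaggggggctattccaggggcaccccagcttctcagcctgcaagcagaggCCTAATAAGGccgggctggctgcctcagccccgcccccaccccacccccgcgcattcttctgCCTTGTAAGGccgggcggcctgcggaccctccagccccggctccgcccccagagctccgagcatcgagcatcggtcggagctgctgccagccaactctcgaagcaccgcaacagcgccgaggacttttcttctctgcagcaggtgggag
Vtn: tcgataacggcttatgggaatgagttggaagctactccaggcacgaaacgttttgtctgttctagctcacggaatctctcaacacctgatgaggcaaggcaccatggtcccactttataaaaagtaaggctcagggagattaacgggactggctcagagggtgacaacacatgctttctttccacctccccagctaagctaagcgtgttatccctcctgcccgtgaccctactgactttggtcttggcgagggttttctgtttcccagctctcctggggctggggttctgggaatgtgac
Rgs5: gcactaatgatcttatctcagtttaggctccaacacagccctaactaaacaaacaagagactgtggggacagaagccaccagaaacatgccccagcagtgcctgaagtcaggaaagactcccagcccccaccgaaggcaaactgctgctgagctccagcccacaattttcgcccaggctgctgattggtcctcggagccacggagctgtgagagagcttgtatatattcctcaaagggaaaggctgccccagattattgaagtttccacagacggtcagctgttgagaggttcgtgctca
The Acta2 window (chr19:34255324-34255623, minus strand) held matches that began 84 and 34 bases before the start, both with 1 such base. The Myl9 window (chr2:156775214-156775513, plus strand) held matches 161 and 99 bases before the start, and 1 of them was perfect. For Acta2 and Myl9 the start used for the window lies inside the gene span given below, and distances count from that start. The Vtn window (chr11:78498870-78499169, plus strand) and the Rgs5 window (chr1:169655251-169655550, plus strand) held none, and neither did the windows of Abcc9 and Anpep. A match of this kind was present in 9.98% of all 32851 promoter windows and a perfect one in 1.63%. Of the further genes listed for each cell type, 0 of 12 smooth muscle windows and 1 of 8 pericyte windows (Tbx18) held a match.

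Totals were 964361 to 18242496 estimated counts in PkcdRed libraries and 1560934 to 16009560 in SstRed libraries, and the mice of 18 to 20 weeks had the shallow libraries (964361 to 2522749). Age class, depth and the flow cell named for each library cannot be told apart. Prkcd stood at 106.5 to 225.7 TPM (a transcript level scaled to length and to the same library total) in PkcdRed libraries and 0 to 30.2 TPM in SstRed libraries. Sst stood at 0.209, 222.7, 4.33 and 13.7 TPM in PkcdRed libraries 1 to 4 and 116.3 to 296.2 TPM in SstRed libraries, so PkcdRed-2 held Sst at the SstRed level. The 11 neuron markers summed to 221.2 to 1013 TPM in PkcdRed libraries and 187.9 to 703.9 TPM in SstRed libraries. Microglial markers summed to 29999 to 48973 TPM in PkcdRed libraries, against 463.4 to 5916 TPM in SstRed libraries. The 10 mural genes summed to 1240, 296.6, 5223 and 3749 TPM in PkcdRed-1 to PkcdRed-4, against 11961, 2753, 14936 and 10510 TPM in SstRed-1 to SstRed-4. They thus reached above the neuron markers in 7 of 8 libraries. In bulk samples of this kind, fewer cells of a type and less RNA per cell cannot be told apart.

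The 4 smooth muscle genes averaged lower in PkcdRed libraries, and 3 of them were near their lowest in SstRed-2. Acta2 (chromosome 19, 34240336 to 34255585, GRCm38), smooth muscle alpha actin, had 100.4, 10.8, 3.65 and 53.6 TPM in PkcdRed-1 to PkcdRed-4, against 608.8, 5.96, 826.8 and 346.7 TPM in SstRed-1 to SstRed-4. SstRed-2 lay among the PkcdRed libraries, and the other SstRed libraries lay above all of them. Near-identical coding stretches in other actin genes make the reads assigned to Acta2 uncertain. Tagln (chromosome 9, 45929628 to 45936058), the actin-binding protein transgelin, had 12.03, 0.97, 11.2 and 22.9 TPM in PkcdRed libraries, against 452.7, 1.26, 368.2 and 127 TPM in SstRed libraries. The pattern was that of Acta2, with SstRed-2 low and the other 3 SstRed libraries above every PkcdRed library. Myh11 (chromosome 16, 14194527 to 14292188), the smooth muscle myosin heavy chain, had 1.25, 0, 10.01 and 2.74 TPM in PkcdRed libraries, against 25.7, 0.017, 87.2 and 5.79 TPM in SstRed libraries. Its 0 in PkcdRed-2 allows up to 3 counts, which is 0.291 CPM (counts scaled to library depth), and SstRed-2 held 1 count. SstRed-1 and SstRed-3 lay above every PkcdRed library, and SstRed-4 lay under PkcdRed-3. Myl9 (chromosome 2, 156775408 to 156781657), the regulatory light chain of smooth muscle myosin, had 306.4, 42.0, 1041 and 607.7 TPM in PkcdRed libraries, against 2490, 549, 2947 and 2138 TPM in SstRed libraries. Unlike the other 3 it was well present in SstRed-2, which lay above both PkcdRed libraries of its age class and under the 2 PkcdRed libraries of the older mice.

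The 6 pericyte genes also had lower means in PkcdRed libraries, with overlap in each. SstRed-2 held 41.9 to 1652 TPM of Vtn, Rgs5, Higd1b and Pdgfrb, but 0.0157 TPM of Abcc9 and 0.304 TPM of Anpep. Vtn (chromosome 11, 78499120 to 78502325), the matrix protein vitronectin and a widely used marker of brain pericytes, had 555.8, 47.4, 2862 and 2259 TPM in PkcdRed-1 to PkcdRed-4, against 6752, 1652, 7753 and 5757 TPM in SstRed-1 to SstRed-4. Only SstRed-2 lay within the PkcdRed range. Vtn was the highest of the 10 genes in 7 of 8 libraries. The exception was PkcdRed-2, where Higd1b was highest. Rgs5 (chromosome 1, 169655501 to 169695813), a brake on G protein signalling, had 108, 23.7, 545.9 and 388.8 TPM in PkcdRed libraries, against 486.3, 256.9, 810.4 and 774.9 TPM in SstRed libraries. Higd1b (chromosome 11, 102835761 to 102844141), a member of the hypoxia-inducible domain family, had 117.9, 152.2, 607.9 and 321.7 TPM in PkcdRed libraries, against 1060, 245.5, 1735 and 1184 TPM in SstRed libraries. For Rgs5 both SstRed libraries of the younger mice lay within the PkcdRed range, and for Higd1b only SstRed-2 did. Within each age class every PkcdRed value of Vtn, Rgs5 and Higd1b lay under every SstRed value.

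Pdgfrb, Abcc9 and Anpep overlapped more between the populations. Pdgfrb (chromosome 18), the receptor through which pericytes are recruited, had 26.0, 18.7, 80.3 and 43.5 TPM in PkcdRed libraries, against 53.6, 41.9, 237.6 and 56.1 TPM in SstRed libraries. SstRed-3 stood apart, and the other 3 SstRed libraries lay within the PkcdRed range. Abcc9 (chromosome 6, 142587862 to 142702766), the sulphonylurea receptor that pairs with Kcnj8 in a potassium channel, had 10.3, 0.802, 23.1 and 29.8 TPM in PkcdRed libraries, against 25.3, 0.0157, 133 and 82.1 TPM in SstRed libraries. It had 1.03 estimated counts in SstRed-2, although Kcnj8 stood there at 187.3 TPM, and SstRed-3 and SstRed-4 lay above every PkcdRed library. Anpep (chromosome 7, 79821803 to 79848210), aminopeptidase N, had 2.15, 0, 37.6 and 18.7 TPM in PkcdRed libraries, against 5.87, 0.304, 37.4 and 39.3 TPM in SstRed libraries. Its values followed age class more than population, with all 4 libraries of the 18 to 20 week mice above all 4 of the younger mice.

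**Figure D1:**
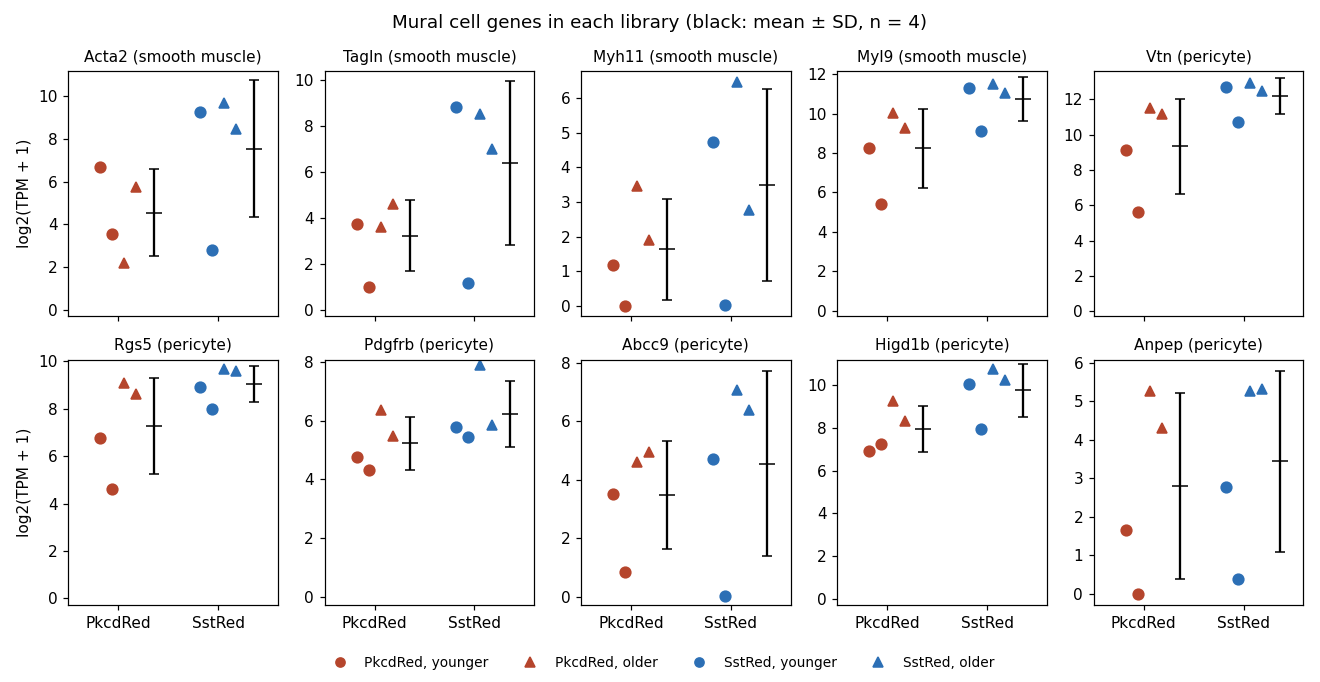
Level of each of the 10 genes as log2(TPM + 1), 1 point a library, with circles for the younger and triangles for the older mice and the mean ± SD of 4 libraries in black. PkcdRed-2 was lowest for 7 of the 10 genes and SstRed-3 was highest for 8. SstRed-2 lay within the PkcdRed range for every gene but Abcc9, where it was the lowest library.

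The comparison of the series was between the PkcdRed and SstRed populations. All 10 genes passed the filter on low counts and all 10 had a negative log2 fold change (PkcdRed minus SstRed), with a median of -2.26, against -0.08 over all 11328 genes tested. Of the smooth muscle genes, Tagln stood at -4.65 ± 1.44 (SE), Myh11 at -3.73 ± 1.82, Acta2 at -3.56 ± 1.28 and Myl9 at -2.48 ± 0.80. Of the pericyte genes, Vtn stood at -2.71 ± 0.95, Higd1b at -2.04 ± 0.62, Abcc9 at -1.76 ± 1.25 and Rgs5 at -1.69 ± 0.66. Pdgfrb and Anpep had the smallest values, at -1.15 ± 0.53 and -1.14 ± 1.43. The median was -3.64 for the 4 smooth muscle genes and -1.73 for the 6 pericyte genes, and whether these differ was not tested.

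None of the 10 passed an adjusted p of 0.05 over all genes in edgeR's quasi-likelihood test, whose smallest value was 0.368 (Higd1b), while 6 had an unadjusted p under 0.05, where 6.67% of all genes did. At that threshold edgeR called 0.282% of all genes in either direction and 0% lower in PkcdRed libraries. DESeq2 called 5 of the 10 lower (Tagln, Vtn, Myl9, Acta2 and Higd1b), where it called 0.812% of all genes lower, and limma on log2(TPM + 1) called 0, where it called 0.0883%. With no filter on low counts edgeR called 5 of the 10 lower (Vtn, Acta2, Tagln, Myl9 and Myh11), where it called 0.303%. The list was made with this contrast known, so these values describe the genes and support nothing further. Without PkcdRed-2, the library with Sst at the SstRed level, all 10 stayed negative with a median of -1.93, and edgeR called 0. Without SstRed-1 the median was -1.18 and Anpep was positive at 0.45, so that library carried much of the size.

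**Figure D2:**
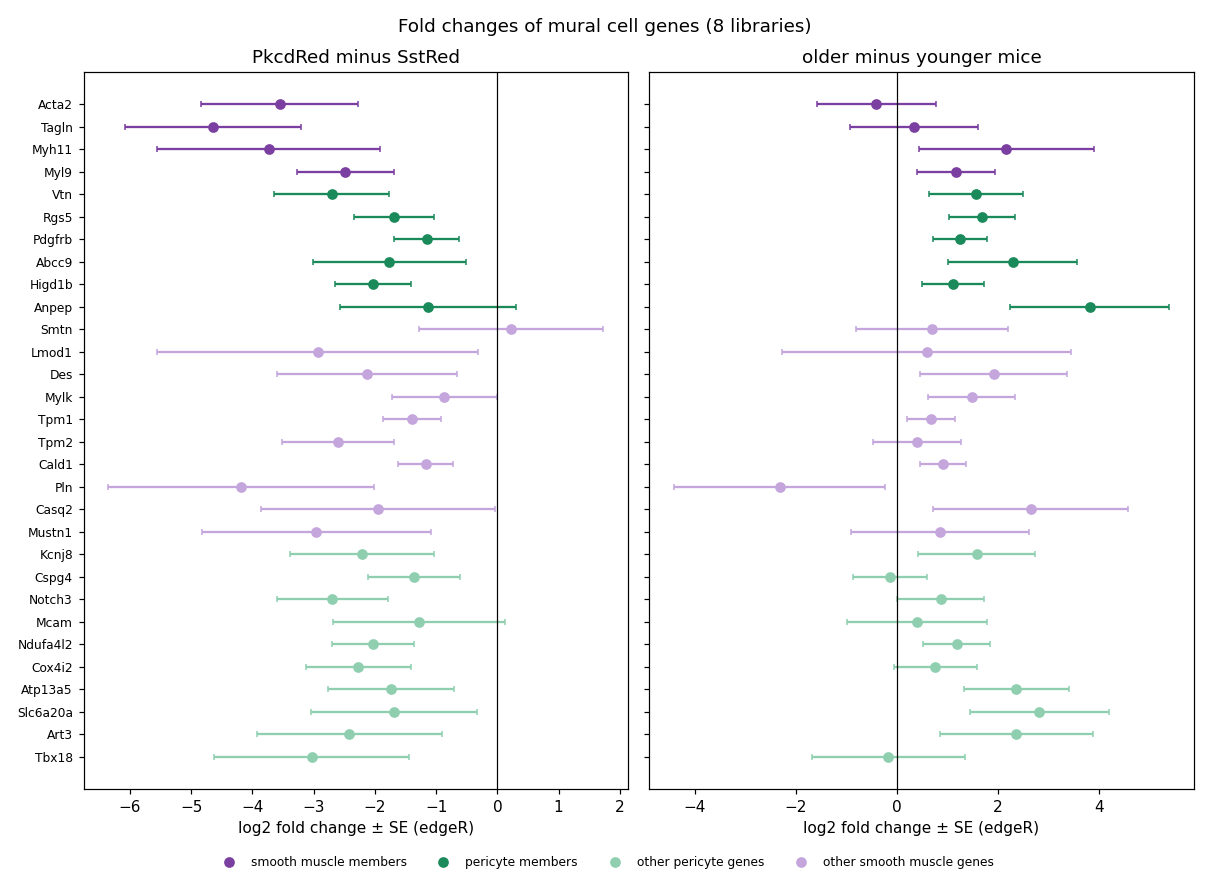
Log2 fold change ± SE from edgeR for the 10 genes and for 20 further mural cell genes, PkcdRed minus SstRed on the left and older minus younger mice on the right. On the left all points but Smtn lie under 0, and on the right Acta2, Pln, Cspg4 and Tbx18 lie under 0.

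The difference was also looked at within age classes, because age class runs with depth. Over all 8 libraries 0 of the 10 genes had every PkcdRed value under every SstRed value, where 3.05% of all genes tested did. Among the older mice 7 of the 10 did, where 24.1% of all genes did, and among the younger mice 5, where 15.4% did. Both classes were so separated for 4 genes, Myl9, Vtn, Rgs5 and Higd1b, where 5.58% of all genes tested did. Vtn had a log2 fold change of -1.34 ± 0.46 (SE) in older mice and -4.03 ± 1.58 in younger mice. Rgs5 had -0.71 ± 0.44 in older mice and -2.64 ± 1.08 in younger mice. Acta2 ran the other way, with -4.28 ± 1.19 in older mice and -2.80 ± 1.91 in younger mice. PkcdRed-3, from the older mice, held only 5.01 estimated counts of Acta2. The interaction of population and age class, fitted in edgeR, called 0 of the 10 genes (smallest adjusted p 1.00) and 0% of all genes, and 0 of the 10 had an unadjusted p under 0.05. DESeq2 and both limma fits also called 0 of the 10 for the interaction. In edgeR the median interaction of the 10 genes was 1.63 over all libraries but -1.71 without SstRed-1, so its direction hung on that library.

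Whether smooth muscle and pericyte genes moved together was looked at library by library. The smooth muscle sum was 420.1, 53.8, 1066 and 686.9 TPM in PkcdRed-1 to PkcdRed-4, against 3578, 556.3, 4229 and 2618 TPM in SstRed-1 to SstRed-4. The pericyte sum was 820.2, 242.8, 4157 and 3062 TPM in PkcdRed libraries, against 8384, 2197, 10707 and 7893 TPM in SstRed libraries. The order of the 8 libraries was the same for both sums (Spearman rho 1, Pearson r 0.98; r 0.979 without SstRed-1 and SstRed-3, the libraries farthest from the median). Being sums over chosen genes, they carry no p. The sums share their libraries, and each age class or population alone has too few libraries for its own value. The smooth muscle genes made up 18.1% to 33.9% of the summed TPM in PkcdRed libraries and 20.2% to 29.9% in SstRed libraries.

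On average each sum rested largely on 1 gene. Vtn averaged 1431 TPM of a mean pericyte sum of 2070 TPM in PkcdRed libraries, and 5479 of 7295 TPM in SstRed libraries. Myl9, the most abundant smooth muscle gene, made up most of the smooth muscle sum. Leaving Myl9 out was a choice made after the data were seen, and the pericyte sum was not taken without Vtn. Without Myl9 the smooth muscle sum was 113.7, 11.8, 24.9 and 79.3 TPM in PkcdRed libraries, against 1087, 7.24, 1282 and 479.5 TPM in SstRed libraries. Its Pearson r with the pericyte sum was 0.902 and its Spearman rho 0.786. SstRed-2 then had the lowest smooth muscle sum of all 8 libraries, with 2197 TPM of pericyte genes. PkcdRed-3 had the highest pericyte sum of its population and the third lowest smooth muscle sum. For every 100 TPM of Vtn there were 18.1, 22.9, 0.128 and 2.37 TPM of Acta2 in PkcdRed libraries, against 9.02, 0.361, 10.7 and 6.02 TPM in SstRed libraries. Myl9 kept to 26.9 to 88.6 TPM per 100 TPM of Vtn in PkcdRed libraries and 33.2 to 38.0 TPM in SstRed libraries.

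**Figure D3:**
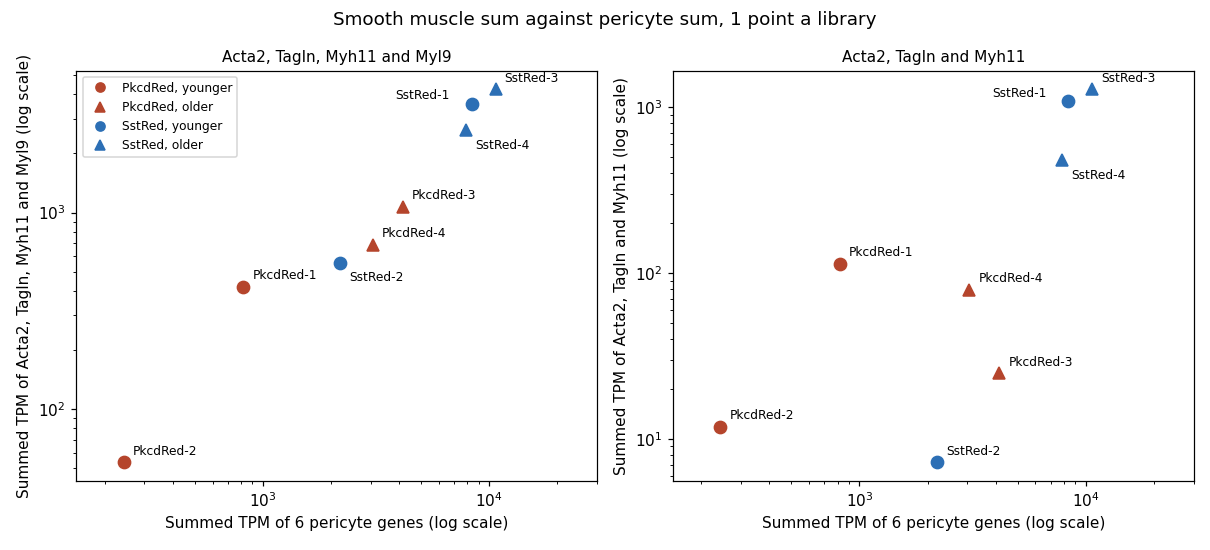
Summed TPM of the smooth muscle genes against summed TPM of the 6 pericyte genes, both on log axes, 1 point a library, with Myl9 (left) and without it (right). With Myl9 the 8 libraries have the same order on both axes, and without it SstRed-2 and PkcdRed-3 fall to 7.24 and 24.9 TPM of smooth muscle genes.

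Single pairs were compared over 8 libraries on the log2(TPM + 1) scale, 45 pairs in all. The genes were chosen with their population difference known, so r and rho are descriptions and carry no p. Myl9 and Vtn moved together most closely, with r = 0.99 and rho = 1, and r was 0.969 without the 2 libraries farthest from the median and 0.984 on deviations from the mean of each population. Tagln and Vtn had r = 0.779 and rho = 0.857 (0.703 without the 2 farthest, 0.666 on deviations), and Myh11 and Vtn had r = 0.751 and rho = 0.952 (0.706 and 0.681). Acta2 and Vtn had r = 0.545 and rho = 0.643 (0.659 and 0.313), while Acta2 and Tagln had r = 0.901 and rho = 0.857 (0.965 and 0.859). The 24 pairs of a smooth muscle and a pericyte gene had a median r of 0.751 (0.415 to 0.99), the 15 pericyte pairs 0.773 (0.706 to 0.983) and the 6 smooth muscle pairs 0.822 (0.613 to 0.901), and these were not tested against each other. Acta2 was in each of the 3 lowest pairs, with Anpep, Pdgfrb and Rgs5. The points of every pair share their libraries, populations and age classes.

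**Figure D4:**
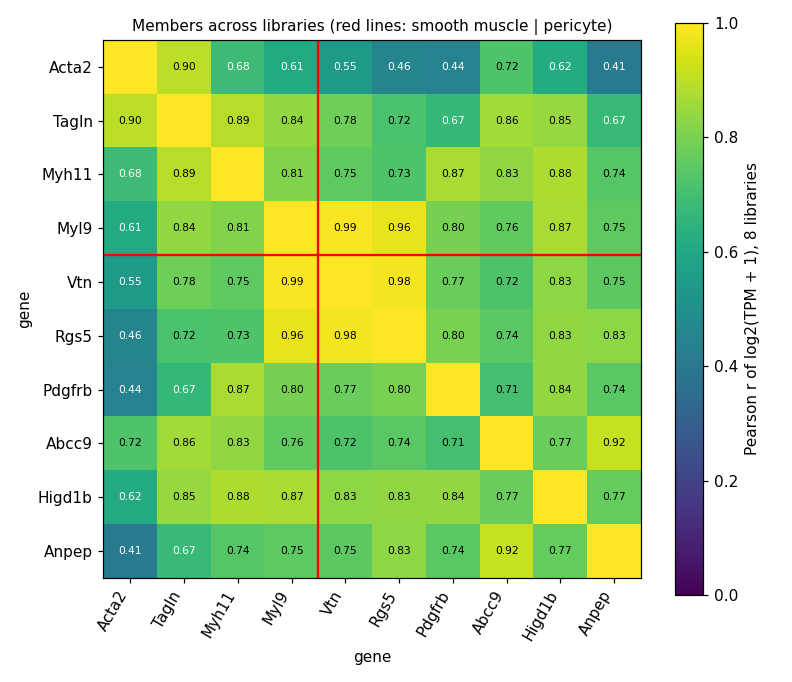
Pearson r of log2(TPM + 1) over 8 libraries for each pair of the 10 genes, with red lines between smooth muscle and pericyte genes. Acta2 has the darkest cells, with the pericyte genes (0.415 to 0.725), while Myl9 is at 0.751 to 0.99.

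Other mural genes were taken from lists of known markers. Of 10 further pericyte genes, 10 were tested, 0 were called in either direction in edgeR and 10 had a negative fold change (median -2.13, against -0.08 over all genes). Kcnj8, the pore of the channel that contains Abcc9, had 77.2, 0.0677, 227.9 and 256.3 TPM in PkcdRed libraries, against 395.5, 187.3, 539.6 and 673.9 TPM in SstRed libraries. Ndufa4l2 and Cox4i2, variant subunits of the respiratory chain that mark brain pericytes, had log2 fold changes of -2.04 ± 0.67 (SE) and -2.27 ± 0.86. Kcnj8, Ndufa4l2, Cox4i2 and Notch3 were separated in both age classes, 4 of 10 where 5.58% of all genes were. Notch3, named after its values were seen, was the 1 gene of the list lower in all 4 PkcdRed than in all 4 SstRed libraries, where 3.05% of all genes were. The transporters Slc6a20a and Atp13a5 and the surface enzyme Art3 had -1.69 ± 1.36, -1.74 ± 1.03 and -2.42 ± 1.51.

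Of 14 further smooth muscle genes, 10 could be tested, 0 were called and 9 had a negative fold change (median -2.04). Tpm1, Tpm2 and Cald1, which bind actin filaments, had -1.39 ± 0.48, -2.61 ± 0.91 and -1.17 ± 0.45 (SE). Casq2, a calcium store protein of muscle, had 7.68, 0, 97.2 and 80.5 TPM in PkcdRed libraries, against 74.9, 0, 70.3 and 139.2 TPM in SstRed libraries. Mustn1 was also at 0 counts in PkcdRed-2 and SstRed-2. Smtn was the member with a positive value, 0.22 ± 1.5. Cnn1, calponin, had at most 0.5 TPM in any library, although it is a classic marker of smooth muscle.

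Genes of signalling between endothelial and mural cells, listed with the transcription regulators Srf, Mrtfa and Mrtfb, went both ways. Of 19 such genes, 17 were tested, 0 were called, and 10 were positive and 7 negative. Among receptors, Ednrb and Ednra, which bind endothelins, had -2.20 ± 0.59 and -1.68 ± 1.23 (SE), and S1pr3 and S1pr1, which bind sphingosine phosphate, had -1.89 ± 1.10 and -0.82 ± 0.55. Tek, the endothelial receptor for angiopoietins, and Tgfbr2 were positive at 5.96 ± 1.75 and 2.01 ± 1.31. Pdgfb, the ligand of Pdgfrb, is named here after its values were seen and had 10.4, 98.6, 48.6 and 30.0 TPM in PkcdRed libraries, against 15.5, 0, 0.771 and 2.06 TPM in SstRed libraries.

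The vessel wall also holds endothelial cells and fibroblasts, and their markers did not follow the mural genes in every library. The 12 endothelial markers summed to 779, 5196, 3390 and 11984 TPM in PkcdRed-1 to PkcdRed-4, against 631.5, 230.4, 2820 and 10853 TPM in SstRed-1 to SstRed-4. PkcdRed-2 had the lowest mural sum with a high endothelial one, and SstRed-2 had 2753 TPM of mural genes with the lowest endothelial sum. Of the 12 endothelial markers 2 were at 0 counts in SstRed-2 (Cdh5 and Kdr, named after their values were seen). Cldn5, Pecam1 and Slco1a4 had 1 count each there, Abcb1a had 1.2, and Flt1 and Ly6c1 had 3 each. The rest of the 12, Itm2a, Emcn, Slc2a1 and Esam, stood there at 19.4, 30.4, 65.4 and 114.5 TPM. Between populations 10 of 12 endothelial markers were positive (median 2.46) and 0 were called. The 7 fibroblast markers summed to 4.40 to 77.6 TPM in PkcdRed libraries and 41.1 to 817.7 TPM in SstRed libraries, with Lum at 0 counts in 3 PkcdRed and 2 SstRed libraries. All 6 fibroblast markers tested were negative (median -2.75) and 0 were called. Col1a1, Col1a2 and Igf2, named after their values were seen, were lower in all 4 PkcdRed than in all 4 SstRed libraries. That was 3 of 6, where 3.05% of all genes tested were.

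Glial markers are given for the same reason. The 8 astrocyte markers summed to 3538, 345.4, 3911 and 3018 TPM in PkcdRed libraries, against 2677, 4065, 6886 and 4483 TPM in SstRed libraries, lowest in PkcdRed-2 and highest in SstRed-3 as the mural sum was. Of them 3 were positive and 5 negative (median -0.44), and 0 were called. The 8 oligodendrocyte markers were all negative (median -0.53) with 0 called, and summed to 11707 to 29628 TPM in PkcdRed libraries and 10181 to 59654 TPM in SstRed libraries. All 12 microglial markers were positive (median 4.39), and edgeR called 4 of them, where it called 0.282% of all genes in either direction. The 4 were Tmem119, Cx3cr1, C1qa and Csf1r (edgeR adjusted p 0.00484, 0.0161, 0.0236 and 0.0344). The part of endothelial cells, fibroblasts, microglia, astrocytes and oligodendrocytes in the mural differences was not tested.

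**Figure D5:**
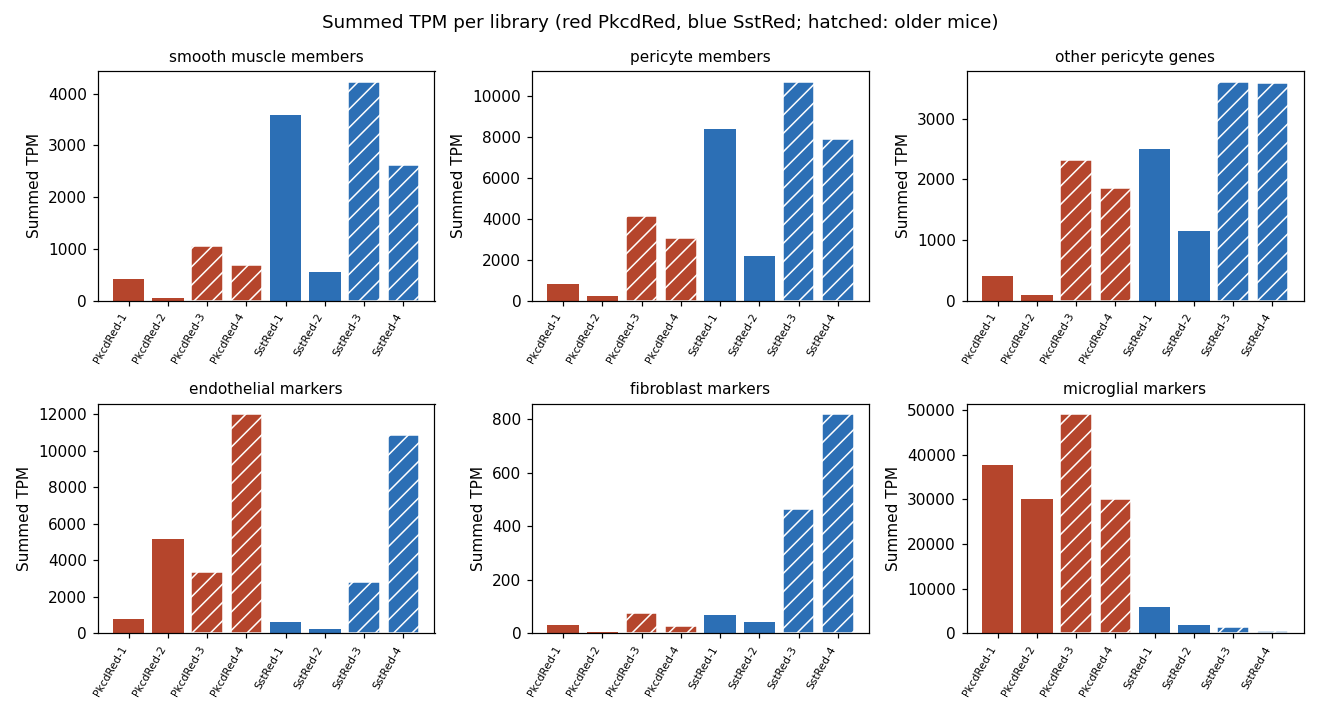
Summed TPM per library for 6 gene lists, PkcdRed in red and SstRed in blue, with hatched bars for the older mice and linear axes that start at 0. Mural sums are highest in SstRed-1, SstRed-3 and SstRed-4, while endothelial sums are highest in PkcdRed-4 and SstRed-4 and microglial sums in the 4 PkcdRed libraries.

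The second comparison was between age classes, which the choice of genes did not rest on, although a higher joint list of mural and red cell markers in the older mice was already known. All 6 pericyte genes and 3 of the 4 smooth muscle genes had a positive log2 fold change (older minus younger), and none passed the test. The median was 1.62 for the pericyte genes and 0.74 for the smooth muscle genes, against -0.16 over all genes. Anpep had 33.2 ± 9.73 TPM in the older and 2.08 ± 2.70 TPM in the younger mice (SD, n = 4 each). On the log2 scale the difference was 3.81 ± 1.57 (SE; edgeR adjusted p 0.539). Rgs5 averaged 630 ± 199 TPM in the older mice and 218.7 ± 202.8 TPM in the younger mice (1.68 ± 0.66, adjusted p 0.523 in edgeR), and Pdgfrb averaged 104.4 ± 90.1 TPM in the older mice and 35.1 ± 15.7 TPM in the younger mice (1.24 ± 0.53, adjusted p 0.558 in edgeR). Vtn, Abcc9, Higd1b, Myh11 and Myl9 had 1.56, 2.29, 1.11, 2.16 and 1.16. Tagln was at 0.33 ± 1.26 and Acta2 at -0.41 ± 1.18, and both signs turned in other fits.

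In edgeR 0 of the 10 were called for age class, where 0.053% of all genes were called and 0.0265% were higher in the older mice, and 3 had an unadjusted p under 0.05, where 8.35% of all genes did. DESeq2 called Anpep (adjusted p 0.0449), where it called 2.40% of all genes higher, and limma on TPM called 0. With no filter on low counts edgeR called Vtn (adjusted p 0.0498), where it called 0.689% higher. Over all fits the adjusted p of Anpep was 0.0449 to 0.916. Anpep alone of the 10 had every older value above every younger one, where 4.15% of all genes did. Of the further lists, 8 of 10 pericyte genes, 9 of 10 smooth muscle genes and 12 of 12 endothelial markers were positive, and 0 of them were called.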

How the data were processed

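The deposited files list estimated counts and TPM per RefSeq transcript. Tools named in the submitters' processing notes are BWA 0.7.12 and kallisto 0.43.0, with mm10 as build and no role given for either. TPM as deposited by the authors divides by transcript length and by the library total, and so keeps no depth. Transcript lengths, the other columns, are as the deposited files give them.

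Of 30404 targets, 30080 matched the RefSeq table (GRCm38.p6) and 147 GENCODE, and 177 kept their accession. Values were summed per gene and estimated counts rounded to whole numbers. The members and lists were chosen with earlier results of these data known. The rule for other named genes takes, from each list, up to 6 with the highest mean TPM among those with at least 10 counts in 4 libraries, and any past the threshold; genes nearest in profile are the 5 with the highest Pearson r for each sum.

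edgeR 4.0.16 (R 4.3.3) fitted quasi-likelihood models with TMM scaling, its default low-count filter, and population and age class as terms. SEs come from the F statistic. P-values were adjusted by Benjamini and Hochberg over all genes. DESeq2 1.42.0 and limma 3.58.1 (log2 of TPM plus 1 or 0.1), other scalings and filters, each age class or population alone and each library left out were alternatives. The edgeR script was tested on simulated data. Correlations are descriptions without p-values. Each library was another mouse, so p-values reflect mouse, sort and amplification spread at once. Floors (3 counts) cover counting error only. 4 replicate numbers are shared by the populations without a stated link.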

Additional observations from a re-analysis of the deposited data

Results flagged for a closer look

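Values of the 10 genes and of both sums were screened for a highest or lowest library far from the others. This was done in each population and age class of 4 libraries, in 48 groups. The cutoff flags about 1 in 20 separate groups of normally distributed values. These groups share libraries and genes, and each age class mixes the populations, so that rate does not hold here. The screen marked 8, which is not read as an excess, and 5 of them were SstRed-1 among the younger mice. That library had 608.8 TPM of Acta2 (next 100.4), 452.7 TPM of Tagln (next 12.03), 25.7 TPM of Myh11 (next 1.25), 1060 TPM of Higd1b (next 245.5) and a smooth muscle sum of 3578 TPM (next 556.3). SstRed-3 stood apart with 87.2 TPM of Myh11 among the older mice (next 10.01) and with 237.6 TPM of Pdgfrb among SstRed libraries (next 56.1). PkcdRed-4 was low for Anpep among the older mice, at 18.7 TPM (next 37.4). Without SstRed-1 the log2 fold change of each of the 10 genes between populations stayed negative except for Anpep, and without SstRed-3 all 10 stayed negative.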

How the results depend on the processing

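Between populations the 10 genes kept their sign in every refit but 1, Anpep without SstRed replicate 1 (0.45; -1.88 to 0.45 with each library left out). edgeR called 0 of the 10 with other scaling, the stricter filter, no age class term, older or younger mice alone and any 1 library omitted (0 to 0), and also without PkcdRed replicate 2 and SstRed replicate 2 together, a choice made after the data were seen. DESeq2 called 5 and edgeR with no filter on low counts called 5, with Myh11 in place of DESeq2's Higd1b; the cause was not tested. For age class DESeq2 called 1 (Anpep) and edgeR with no filter 1 (Vtn), and leaving out a library gave 0 to 0. The age sign turned in 9 refits, all of Acta2 or Tagln. Acta2 was positive in limma with either pseudocount (0.96 and 0.96), without PkcdRed replicate 1 (0.61), without PkcdRed replicate 3 (0.08), without SstRed replicate 1 (0.45) and in SstRed libraries alone (0.41), with a range of -0.91 to 0.61 when 1 library was left out. Tagln was negative without PkcdRed replicate 2 (-0.11), in SstRed libraries alone (-0.41) and without both replicates 2 (-0.70), with a range of -0.11 to 2.77 when 1 library was left out. The r between sums was 0.967 to 0.984 with each library left out, 0.977 on the log scale and 0.969 from CPM. Without Myl9, a choice made after the data were seen, it was 0.902. The median r of mixed pairs was 0.792 with a pseudocount of 0.1 and 0.759 on deviations from the age class mean. On deviations from the population mean, added after the data were seen, it was 0.725, and the r between log2 sums was 0.959. With the replicate number as a block edgeR called 0 of the 10 (smallest adjusted p 0.162). Same-numbered libraries correlated in their deviations at 0.0905, 0.13, 0.0748 and 0.199 over 10997 genes, and not every library correlated best with its own number. Libraries of the same age class but different number had 0.0901 to 0.21, and libraries of different age class had -0.265 to -0.0598. These values follow age class and so cannot decide pairing. With no stated link, the numbers were not taken as pairs. Depth limits Acta2 in PkcdRed-3 (5.01 counts of 964361), while Myh11 and Abcc9 had 1 and 1.03 counts in the deep SstRed-2.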

Other observations

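Over 10987 other genes with at least 10 counts in 4 libraries, the profiles nearest to the pericyte sum were those of Ndufa4l2 (Pearson r 0.99 of log2(TPM + 1), 8 libraries), Cox4i2 (0.976), Ginm1 (0.97), Serpini1 (0.966) and Lurap1l (0.965). Nearest to the smooth muscle sum were Cox4i2 (0.985), Ccpg1os (0.974), Gpx8 (0.971), Pip4p2 (0.969) and Mgp (0.968), a matrix protein of vessel walls. Cox4i2, in both sets, had 52.8, 12.7, 98.3 and 101.7 TPM in PkcdRed libraries, against 323.8, 101.2, 310.4 and 313.5 TPM in SstRed libraries. Ndufa4l2 had 107.7, 62.6, 515.6 and 356.8 TPM in PkcdRed libraries, against 926.3, 246.9, 977.2 and 899 TPM in SstRed libraries. Ndufa4l2 and Cox4i2 stood on the list of further pericyte genes, and the other genes named here were on none.

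For every 100 TPM of Vtn there were 19.4, 50.04, 19.1 and 17.2 TPM of Rgs5 in PkcdRed-1 to PkcdRed-4, against 7.202, 15.6, 10.5 and 13.5 TPM in SstRed-1 to SstRed-4. This ratio was picked from 28 after their values were seen, and it was not tested.

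Of the 2 RefSeq transcripts of Myh11, the first listed held 99.7% to 100% of the TPM in every library with reads except SstRed-3, where it held 44.9%. Division between such transcripts was estimated by the authors' tool.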
